A study of Mus musculus with 24 samples.

Results

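MLL1 (KMT2A) binding at gene ends where no Menin was called was examined in mouse leukaemia cells carrying NUP98 fusions. The sites are rows of the MLL1 peak list of DMSO-treated NUP98-HOXA9 cells that were narrower than 2000 bp, lay within 1 kb of either end of a protein-coding gene, and shared no base with a DMSO Menin row of NUP98-HOXA9 or of NUP98-HOXD13. They were chosen by these measured values, so the MLL1 call in that list and the absence of DMSO Menin are the definition of the set and not a finding about it. The rule found 917 rows, which are 10.3% of the 8871 narrow gene-end rows and were drawn from 22534 MLL1 rows in all. They lie at 954 genes.

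The series is chromatin immunoprecipitation sequencing of mouse leukaemia cells grown in IL-3, IL-6 and SCF. Cells received the solvent DMSO or VTP50469, a small molecule that blocks the contact between MLL1 and Menin, and 14 of its 24 libraries come with a peak list. MLL1 was profiled in 4 lines named for their fusion (NUP98-HOXA9, NUP98-HOXD13, NUP98-JARID1A, NUP98-NSD1), the first 2 of which also have Menin lists and the first an H3K4me3 pair. Every antibody and line has 1 DMSO and 1 VTP50469 list. The NUP98-HOXA9 MLL1 pair was taken at 72 h and every other pair at 96 h, and VTP50469 was given at 2 µM, or at 200 nM for NUP98-NSD1 as its sample labels state, although the treatment protocol in the labels names 2 µM alone. All cells carry a NUP98 fusion, the labels name no line without one, and they do not say how the fusion was introduced or whether a line is 1 clone. Each condition is 1 library, so no difference has a replicate check and no p-value is given. Shares carry 95% Wilson intervals, which cover counting error only and treat rows as independent, although rows of 1 library share its depth and threshold. The 14 lists hold between 403 and 24950 rows, and read depth is not known from them. The fold of a row is the authors' enrichment of signal over background. It orders rows within a list only, so folds of 2 lists are set side by side below without being compared.

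MLL1 is a histone methyltransferase that writes trimethylation on lysine 4 of histone H3 (H3K4me3), a mark of active promoters. Its amino-terminal part binds Menin, an adaptor that helps to hold MLL1 on chromatin, and its CXXC domain binds unmethylated CpG dinucleotides, which are dense in CpG islands. Menin is required by leukaemias that depend on HOX and MEIS gene expression, and VTP50469 was made to displace it from MLL1.

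Promoter sequences of 6 genes show the range of the set. They are RefSeq windows of GRCm38.p6, from 250 bases before to 50 bases after the gene start, written 5′ to 3′ on the gene's strand. Nmi and Parp12 were chosen because they have the strongest rows over a promoter window, and Erap1 because, like them, it was called in all 8 MLL1 lists. Clec4a1 has the strongest row that lies over a window of very low CpG content without H3K4me3, Irgm1 is an interferon-induced gene that was not called after VTP50469 in NUP98-HOXA9, and Hipk2 lies under one of the strongest H3K4me3 rows of the set. Capitals mark matches to any of 11 short motifs on either strand.
Nmi, chr2:51973159-51973458, minus strand: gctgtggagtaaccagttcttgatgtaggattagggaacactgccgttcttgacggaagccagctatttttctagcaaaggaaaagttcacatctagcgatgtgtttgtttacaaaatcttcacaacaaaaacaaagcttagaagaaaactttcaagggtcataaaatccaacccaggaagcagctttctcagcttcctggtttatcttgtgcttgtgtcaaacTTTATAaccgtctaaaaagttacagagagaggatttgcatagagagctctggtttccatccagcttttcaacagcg
Parp12, chr6:39118300-39118599, minus strand: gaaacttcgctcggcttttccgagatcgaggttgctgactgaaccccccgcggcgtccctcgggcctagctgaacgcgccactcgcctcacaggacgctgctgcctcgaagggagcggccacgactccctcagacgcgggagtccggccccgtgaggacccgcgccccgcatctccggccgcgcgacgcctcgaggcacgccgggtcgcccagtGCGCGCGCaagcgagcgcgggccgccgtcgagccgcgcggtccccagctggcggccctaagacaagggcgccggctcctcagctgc
Erap1, chr13:74639603-74639902, plus strand: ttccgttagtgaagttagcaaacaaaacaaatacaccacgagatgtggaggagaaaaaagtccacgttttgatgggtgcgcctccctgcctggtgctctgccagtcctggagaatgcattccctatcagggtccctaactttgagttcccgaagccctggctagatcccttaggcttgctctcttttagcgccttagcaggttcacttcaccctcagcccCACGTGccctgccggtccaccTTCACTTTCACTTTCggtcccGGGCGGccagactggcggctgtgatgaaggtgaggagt
Clec4a1, chr6:122921598-122921897, plus strand: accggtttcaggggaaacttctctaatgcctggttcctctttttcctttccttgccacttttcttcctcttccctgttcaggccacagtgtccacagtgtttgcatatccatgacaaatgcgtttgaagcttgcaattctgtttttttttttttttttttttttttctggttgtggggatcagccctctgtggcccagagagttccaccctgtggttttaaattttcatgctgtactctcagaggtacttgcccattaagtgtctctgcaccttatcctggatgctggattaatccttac
Irgm1, chr11:48871371-48871670, minus strand: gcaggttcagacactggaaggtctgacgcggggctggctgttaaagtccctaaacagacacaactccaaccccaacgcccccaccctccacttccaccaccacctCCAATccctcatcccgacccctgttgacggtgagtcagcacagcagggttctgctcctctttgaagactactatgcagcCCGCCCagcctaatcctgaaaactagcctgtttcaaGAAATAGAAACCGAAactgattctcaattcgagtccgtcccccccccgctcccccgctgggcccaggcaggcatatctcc
Hipk2, chr6:38876141-38876440, minus strand: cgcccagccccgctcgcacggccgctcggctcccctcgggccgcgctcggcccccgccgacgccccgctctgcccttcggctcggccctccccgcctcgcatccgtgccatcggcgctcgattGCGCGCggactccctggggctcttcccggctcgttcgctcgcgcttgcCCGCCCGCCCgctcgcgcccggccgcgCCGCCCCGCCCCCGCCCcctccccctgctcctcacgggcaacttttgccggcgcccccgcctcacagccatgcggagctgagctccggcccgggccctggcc
The capitals in Nmi are a TATA box (TATAAA, reverse strand), those in Parp12 are ZF5 motifs (GCGCGC), and Clec4a1 has none. Erap1 holds an E-box (CACGTG), a GC box (GGGCGG) and a pair of overlapping interferon response elements (GAAANNGAA, reverse strand). Irgm1 holds a CCAAT box, a GC box on the reverse strand and a pair of overlapping interferon response elements, and Hipk2 holds 5 GC boxes on the reverse strand and a ZF5 motif. The ratio of observed to expected CpG was 0.403 in Nmi, 1.14 in Parp12, 0.538 in Erap1, 0.145 in Clec4a1, 0.499 in Irgm1 and 1.09 in Hipk2. The 6 windows thus run from CpG-depleted to island-like.

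The rows without Menin were short and weak. Their MLL1 fold had a median of 5.10 and a 90th percentile of 7.94, against a median of 8.51 for the 3034 narrow gene-end rows with Menin in 1 line and 19.6 for the 4920 with Menin in both lines. Their median width was 373 bp, against 580.5 bp and 821.5 bp. Of the rows with Menin in 1 line 3023 had it in NUP98-HOXD13 and 11 in NUP98-HOXA9. The NUP98-HOXD13 Menin list has 18826 rows against 9050 in NUP98-HOXA9. The strength of a row and the calling of Menin on it therefore move together, so the main comparisons in NUP98-HOXA9 and NUP98-HOXD13 are also given within steps of fold.

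The set is made of 2 kinds of row. Another MLL1 row of the same list lay within 1 kb of 437 rows (47.7%, interval 44.4 to 50.9%), against 15.2% of the rows with Menin in 1 line and 11.9% of those with Menin in both. These 437 are called flanking rows here, and the other 480, with no MLL1 neighbour within 1 kb, stand-alone rows. The neighbour of a flanking row was usually the stronger one (352 of 437), with a median fold of 10.5 against 4.82 for the flanking rows, and it carried Menin in 322 of the 437 cases (73.7%). It was 2 kb or wider in only 18 cases and was itself one of the 917 rows in 76. Flanking rows thus sat mostly beside a Menin-bound MLL1 peak at the same gene end, at a median of 602 bp from the annotated end, whereas stand-alone rows had a median distance of 0 bp. Over all 917 rows a DMSO Menin row lay within 1 kb of 339 (37.0%).

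Most rows lay at the start of a gene. A 5′ end was within 1 kb of 641 rows (69.9%), a 3′ end alone of 94 rows (10.3%), and for 182 rows the strand of the gene was not in the reference used. The share at a 3′ end alone was 3.0% among the rows with Menin in 1 line and 1.87% among those with Menin in both, outside the interval of the rows without Menin (8.45 to 12.4%). Of the 954 genes, 437 also had a narrow row that shared a base with Menin, 27 had a row of 2 kb or wider, and 492 had no MLL1 row within 1 kb of either end other than those without Menin.

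The values just inside and outside the limits show how the set is bounded. The widest rows kept were at Tox (1994 bp) and Car2 (1992 bp), and the narrowest left out were at 9130008F23Rik (2092 bp) and Gpr65 (2136 bp). The farthest rows kept lay 997 bp from an end of Lin9 and 996 bp from an end of Ddx21, and the nearest left out lay 1002 bp from Dzip3 and 1004 bp from Mocos. The rows nearest to Menin that were kept were at Flt4, 22 bp away, and Elk3, 34 bp away, and those left out with the least overlap shared 3 bp at Kcmf1 and 25 bp at Sumo2.

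The promoters under these rows were poorer in CpG than those under Menin-bound rows. A promoter window was shared by 308 of the 917 rows, and the ratio of observed to expected CpG in these windows had a median of 0.586, against 0.771 for 2159 windows of the rows with Menin in 1 line and 0.840 for 3830 windows of those with Menin in both. All 21037 windows of protein-coding genes had a median of 0.574. A ratio under 0.4 was found in 33.4% of the windows without Menin (103 of 308, interval 28.4 to 38.9%), in 8.75% with Menin in 1 line, in 2.77% with Menin in both and in 38.8% of all windows. Stand-alone rows gave 32.9% and flanking rows 35.4%. Among rows of fold under 8 the shares were 31.8%, 12.3% and 15.7%, so the difference was also present at low fold. GC boxes were in 44.8% of the windows without Menin, 64.6% and 77.6% of the others and 46.7% of all windows. The ETS motif CCGGAAG was in 8.12%, 18.3%, 26.5% and 11.7% in the same order, and NRF1's GCGCATGCG was in 0 of the 308 windows against 2.96%, 6.37% and 2.37%. The PU.1 motif GAGGAAGT, a sequence bound by a myeloid ETS factor, was in 7.79% (24 of 308, interval 5.29 to 11.3%), 3.06%, 3.16% and 3.15%. The interferon element was in 10.4% (7.46 to 14.3%), 7.04%, 6.58% and 8.10%, and the interval of the rows without Menin covers the share of all windows. The E-box, CCAAT box, cAMP response element (TGACGTCA), YY1 motif (AAGATGGCG), TATA box and ZF5 motif were in 5.84%, 30.2%, 1.62%, 0.974%, 8.44% and 15.6% of the windows without Menin, against 7.92%, 38.5%, 2.26%, 1.83%, 12.7% and 18.1% of all windows. GC boxes and ZF5 motifs can share bases with other GC-rich matches, and a match describes letters and no binding.

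**Figure D1:**
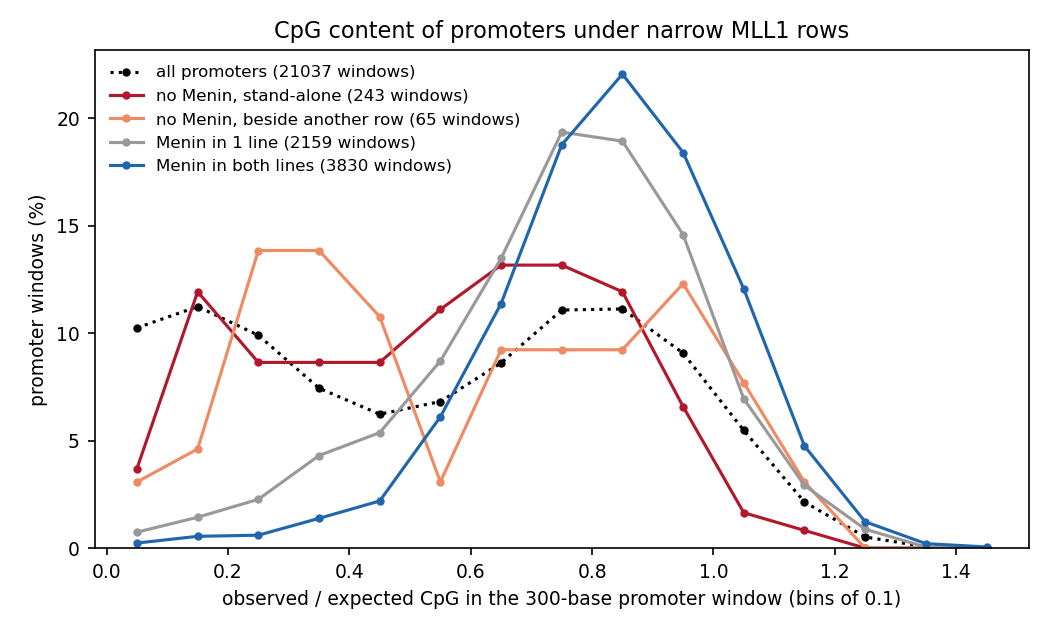
Ratio of observed to expected CpG (x axis, bins of 0.1) in RefSeq promoter windows under narrow gene-end MLL1 rows, as a percentage of the windows of each set (y axis). The rows without Menin, shown in red for stand-alone and orange for flanking rows, spread over the whole range as all promoters do (dotted), while the Menin-bound sets peak between 0.7 and 0.9.

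Nmi, which encodes an interferon-induced partner of MYC and STAT proteins, had one of the strongest rows without Menin, at chr2:51972081-51973527 with a fold of 18.4. It was called in all 8 MLL1 lists, with VTP50469 folds of 20.8 in NUP98-JARID1A, 14.2 in NUP98-NSD1, 8.90 in NUP98-HOXA9 and 7.74 in NUP98-HOXD13. No H3K4me3 row touched it in either list, and the nearest lay 36814 bp away.

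Parp12, an interferon-induced ADP-ribosyltransferase, had a fold of 17.0 at chr6:39117542-39118604 and was likewise called in all 8 lists, with 33.0, 20.2, 13 and 6.73 after VTP50469 in the same order of lines. It carried H3K4me3 with folds of 4.43 in DMSO and 4.29 after VTP50469, and no Menin row of either line lay within 80 kb, the nearest being 86521 bp away. Erap1, an aminopeptidase that trims peptides for MHC class I, had a fold of 15.0 at chr13:74639465-74640316 and VTP50469 folds of 20.1, 10.4, 9.73 and 5.21. The remaining rows called in all 8 lists were at Sf3b1, a core splicing factor (14.7), and at Tmem140 (12.8), so 5 of the 917 rows were called in every MLL1 list. Such rows must be among those called after VTP50469 in NUP98-NSD1, which were 24 of the 917 and 896 of all 22534 MLL1 rows (3.98%). The count in every list is given for the rows without Menin alone, so it does not set them apart from other rows. All 5 lie at 5′ ends and had DMSO folds above 12. The row at Sf3b1 is flanking, with a Menin row 617 bp away.

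All 16 rows with a fold of 12 or more were still called after VTP50469 in NUP98-HOXA9. Beside those named above they include rows at Hoxb9 (fold 16.7, chr11:96277506-96278295), Frmd5 (16.7), Clec4a1, a myeloid C-type lectin receptor (16.7), Umps, an enzyme of pyrimidine synthesis (16.2), Tox, an HMG-box transcription factor (15.3), and Anxa1, an annexin of resolving inflammation (14.8). Clec4a1, at chr6:122921523-122921966, was called in NUP98-HOXD13 DMSO (6.13) and VTP50469 (10.3) and in NUP98-JARID1A VTP50469 (14.1) but not in NUP98-JARID1A DMSO or either NUP98-NSD1 list. It also met a NUP98-HOXD13 Menin row after VTP50469 (4.92). Clec4a1 has close gene copies, and how reads with several matches were placed is not given in the sources used here, so its values are uncertain. The same holds for Bcl2a1d, a BCL2 family survival gene (11.3), Vmn2r16, E030030I06Rik and Smok3c.

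**Figure D2:**
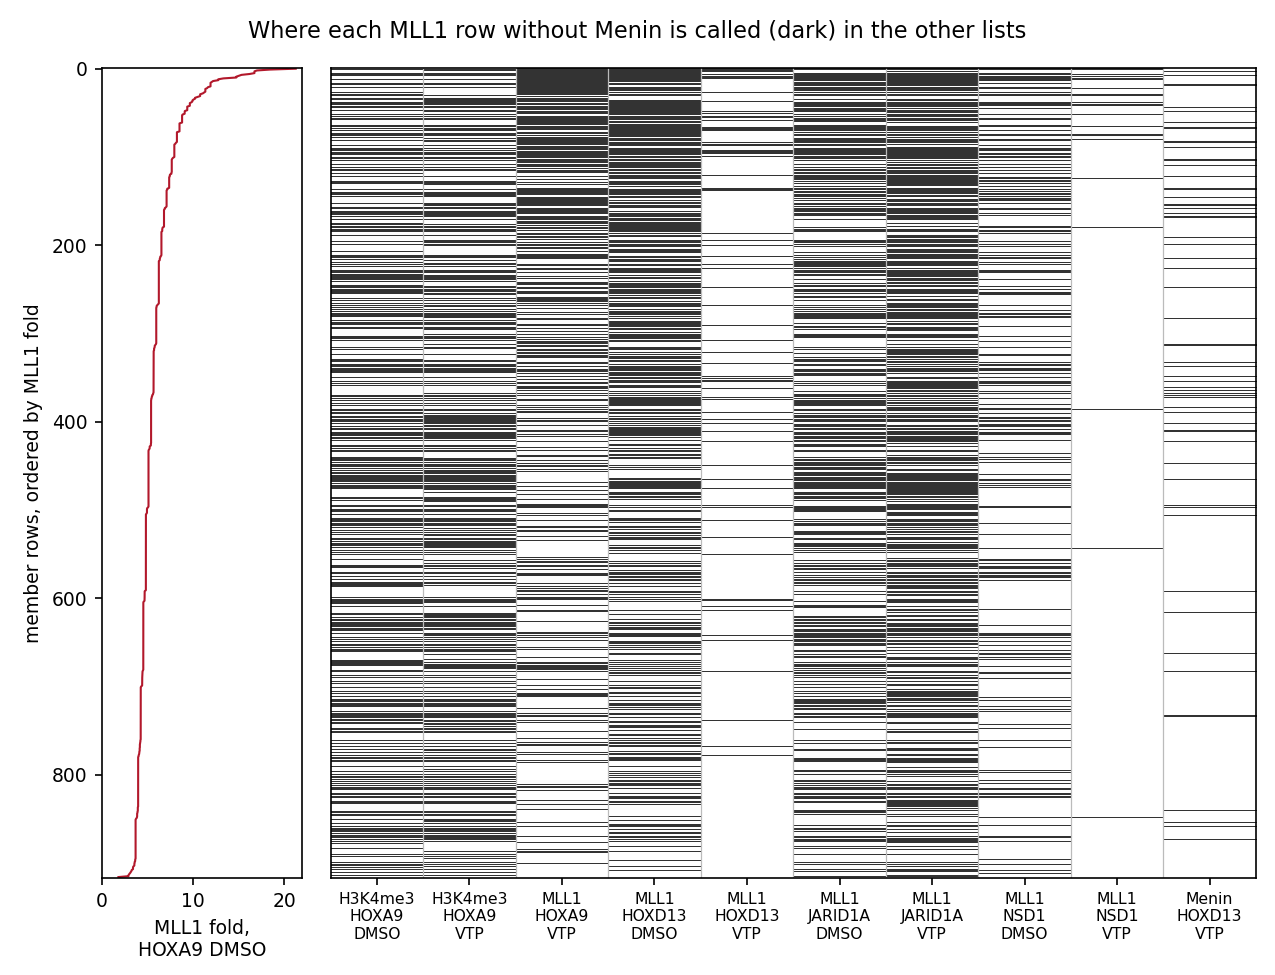
Each of the 917 rows is a line, ordered from the highest MLL1 fold in NUP98-HOXA9 DMSO (left, x axis in fold) to the lowest. Dark marks show a row of the named list sharing at least 1 base with it. The NUP98-HOXA9 VTP50469 column is nearly full at the top and sparse below, the H3K4me3 columns change little from top to bottom, and the NUP98-HOXD13 and NUP98-NSD1 VTP50469 columns are almost empty.

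After VTP50469 MLL1 was no longer called in NUP98-HOXA9 on 551 of the 917 rows (60.1%, interval 56.9 to 63.2%) and was still called on 366. Over all MLL1 rows of that list the share not called was 21.5%. It was 5.60% of the 3034 rows with Menin in 1 line and 0.0203% of those with Menin in both, where 1 row of 4920 was not called. Every row was called with DMSO by the rule and many lay near the calling limit, and no DMSO repeat shows how many weak rows would go uncalled without VTP50469. Within steps of fold the gap remained. Of the rows without Menin 85.4% were not called at a fold under 4, 73.8% at 4 to 5, 61.6% at 5 to 6, 38.3% at 6 to 8, 21.4% at 8 to 12 and 0 of 16 at 12 or more. With Menin in 1 line the shares were 31.8%, 28.4%, 12.5%, 6.87%, 0.591% and 0 of 849. Rows with Menin in both lines were rare at low fold, and the only one not called was 1 of 40 at a fold of 5 to 6.

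Flanking rows dropped out more often than stand-alone ones, 74.4% (325 of 437, 70.1 to 78.2%) against 47.1% (226 of 480, 42.7 to 51.5%). In 264 of the 437 flanking cases (60.4%) the row was not called while its nearest neighbour was, in 61 neither was called, in 82 both were, and in 30 only the flanking row was. The flanking row alone was thus the usual one to drop out. Stand-alone rows held the same order by fold, with 71.2%, 65.6%, 49.6%, 28.2% and 15.6% not called in the first 5 steps and 0 of 11 in the last. For stand-alone rows with Menin in 1 line the shares were 17.2%, 23.8%, 10.3%, 6.13%, 0.681% and 0 of 759. Among stand-alone rows 45.4% were not called of the 368 that lay over 5 kb from any DMSO Menin row of either line (40.4 to 50.5%), and 52.7% of the 112 nearer ones (43.5 to 61.7%), with overlapping intervals. Rows at a 3′ end alone were not called in 57.4% (54 of 94), and rows at a 5′ end in 60.8%. The intervals of the shares at the gene ends overlap too.

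The strongest rows that were not called lay at Vwa5a (10.5), Pam16, part of the mitochondrial import motor (10.2), Tmem229b (9.64), Irgm1, an immunity-related GTPase (9.36), Rab38, a GTPase of lysosome-related organelles (9.07), and, at 8.79 each, Creb1, the transcription factor of cAMP signalling, Olfml2b and Myb, a transcription factor of blood progenitors. Tmem229b shows how the lines differed at a single row. At chr12:79006434-79007519 it was called with DMSO in all 4 lines (20.8 in NUP98-JARID1A, 11.3 in NUP98-HOXD13, 8.72 in NUP98-NSD1), and after VTP50469 in NUP98-JARID1A (9.60) and NUP98-NSD1 (7.20) only, while its H3K4me3 fold was 7.59 with DMSO and 7.96 after VTP50469. Pam16 was called in NUP98-HOXA9 DMSO and in none of the other 13 lists. It is one of 120 rows (13.1%) that were called in no MLL1 list but that one, a count of 7 among the rows with Menin in 1 line and 1 among those with Menin in both.

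**Figure D3:**
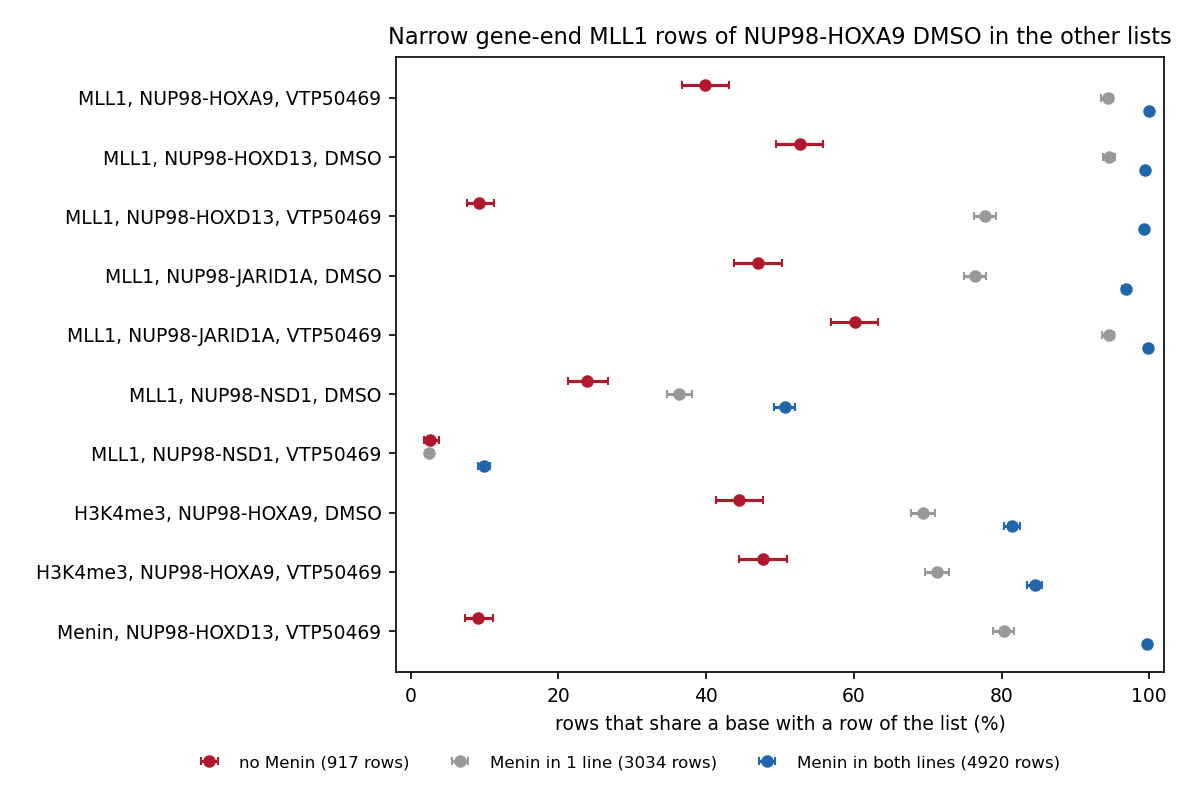
Share of narrow gene-end MLL1 rows of NUP98-HOXA9 DMSO (x axis, percent) that share a base with a row of each other list (y axis), for rows without Menin (red), with Menin in 1 line (grey) and in both (blue). Bars are 95% Wilson intervals, and the red points lie left of the others in every list except NUP98-NSD1 VTP50469, where they lie close to those with Menin in 1 line (grey). In the NUP98-HOXD13 Menin list the place of the red point follows in part from the rule, which left out rows with DMSO Menin in that line.

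In NUP98-HOXD13 the fall was larger. With DMSO 483 of the 917 rows carried MLL1 (52.7%), below the 72.8% of all NUP98-HOXA9 MLL1 rows, and after VTP50469 85 did (9.27%), against 59.4%. Of the 483, 416 were not called after VTP50469 (86.1%, interval 82.8 to 88.9%), where all NUP98-HOXD13 DMSO rows gave 32.7%, the rows with Menin in 1 line 19.8% and those with Menin in both 0.511%. For 68 of the 416 (16.3%) the NUP98-HOXD13 row lying over the site did meet a VTP50469 row elsewhere along its length. Among stand-alone rows bound by a narrow NUP98-HOXD13 row the share not called, by fold in NUP98-HOXD13 DMSO, was 87.5%, 89.1%, 90.3%, 77.3% and 67.6% in the first 5 steps and 0 of 4 in the last. With Menin in 1 line it was 48.4%, 44.1%, 45.8%, 32.4%, 14.1% and 0.804%. Over all 483 bound rows, flanking and wide ones included, 45 of 49 in the last step were not called. The rule used the NUP98-HOXD13 Menin list, so Menin and MLL1 of this line are not independent in strength here.

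**Figure D4:**
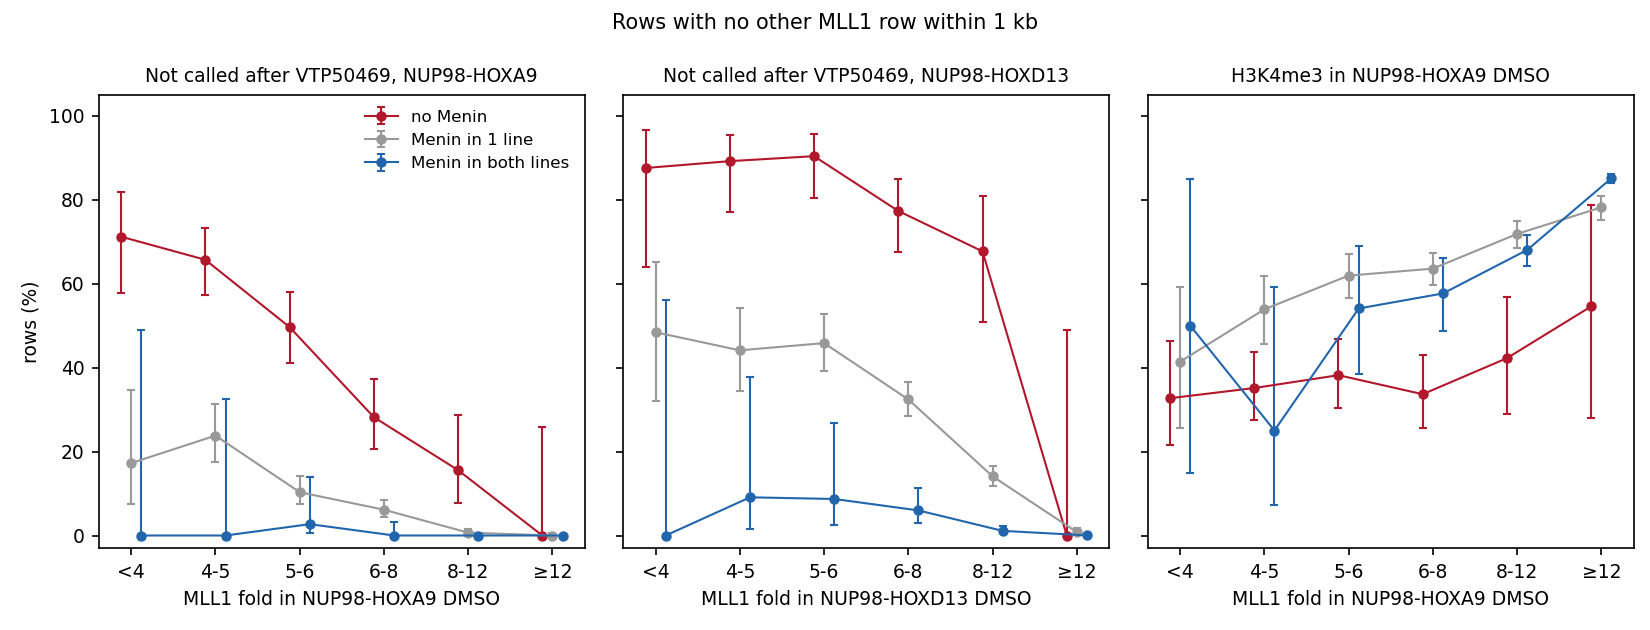
Stand-alone rows by step of MLL1 fold (x axis): percent not called after VTP50469 in NUP98-HOXA9 (left) and in NUP98-HOXD13 (middle), and percent with H3K4me3 in NUP98-HOXA9 DMSO (right). Points are shares and bars 95% Wilson intervals. Rows without Menin (red) lie above the other sets in the left and middle panels at every step below 12, and below the rows with Menin in 1 line (grey) in the right panel.

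NUP98-JARID1A went the other way in the lists as deposited. MLL1 was called on 431 rows with DMSO (47.0%, 60.5% of all NUP98-HOXA9 rows) and on 551 after VTP50469 (60.1%, 75.6% of all). Of the 431, 72 were not called after VTP50469 (16.7%, 13.5 to 20.5%), against 8.62% of all NUP98-JARID1A DMSO rows, 1.38% with Menin in 1 line and 0.0210% with Menin in both. Of the 486 without MLL1 in DMSO, 192 had it after VTP50469. This count is given for the rows without Menin alone, so it does not show that they gained calls more often than others. Over all 22534 NUP98-HOXA9 MLL1 rows the calls in NUP98-JARID1A also rose, from 13635 with DMSO to 17032 after VTP50469. The NUP98-JARID1A VTP50469 list holds 24950 rows and the DMSO list 15765. When the longer list was shortened to its 15765 rows of highest −log10 q, the rows called after VTP50469 numbered 282, below the 431 of DMSO. The direction of the change thus differed between the deposited and the shortened lists. The cut takes rows of lower −log10 q from the VTP50469 list alone, and the part of list length was not tested further. In the shortened lists 50.1% of the 431 were not called, against 21.4% of all rows of the line and 22.3% with Menin in 1 line.

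In NUP98-NSD1, at 200 nM by its sample labels, MLL1 was called on 219 rows with DMSO (23.9%, against 27.1% of all) and on 24 after VTP50469 (2.62%, against 3.98%). The share not called was 89.0% (195 of 219, 84.2 to 92.5%), against 88.8% of all NUP98-NSD1 DMSO rows, 94.1% with Menin in 1 line and 84.1% with Menin in both. The rows without Menin therefore did not stand apart from the list in this line, whose VTP50469 list has 1036 rows.

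Across lines 269 rows (29.3%) were called with DMSO in NUP98-HOXA9 alone, 307 in 2 lines, 197 in 3 and 144 in all 4 (15.7%). No such split is given for the Menin-bound rows, but their counts by line are. Of the 4920 rows with Menin in both lines, NUP98-HOXD13 had a DMSO call on 4893, NUP98-JARID1A on 4763 and NUP98-NSD1 on 2490. With Menin in 1 line, 2869 of 3034 were called in NUP98-HOXD13. The share called in NUP98-HOXA9 alone was therefore below 29.3% in both Menin-bound sets. These counts are not matched on fold. For the count in all 4 lines, 144 here, no Menin-bound value is given. Of these 144 rows, 124 were not called after VTP50469 in NUP98-HOXD13 (86.1%), 122 in NUP98-NSD1 (84.7%), 79 in NUP98-HOXA9 (54.9%) and 14 in NUP98-JARID1A (9.72%). The JARID1A value again comes from a VTP50469 list longer than the DMSO one. H3K4me3 was on 105 of the 144 (72.9%) and on 52 of the 269 (19.3%). Being bound in more lines thus went with the mark, while the share lost in NUP98-HOXA9 was 62.5% of the 269, with an interval (56.5 to 68.0%) that overlaps that of the 144 (46.7 to 62.8%).

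H3K4me3 was called with DMSO on 408 of the 917 rows (44.5%, interval 41.3 to 47.7%) and after VTP50469 on 437 (47.7%). All MLL1 rows of the list gave 36.2% and 37.7%, and the narrow gene-end rows 69.4% with Menin in 1 line and 81.4% with Menin in both. The 2 lists agreed on most rows: 369 had the mark in both, 441 in neither (48.1%), 39 with DMSO alone and 68 after VTP50469 alone. The full split is not given for the Menin-bound rows. Of these, 928 of 3034 with Menin in 1 line and 914 of 4920 with Menin in both had no mark with DMSO. The share with the mark in neither list was therefore below 48.1% in both Menin-bound sets. The mark did not go with fold, at 44.5%, 44.7%, 46.3%, 43.2%, 41.4% and 43.8% in the 6 steps, while it rose from 43.2% to 78.3% over the same steps with Menin in 1 line. Stand-alone rows carried it less often (36.5%) than flanking ones (53.3%). Matched on quartiles of fold, the share without Menin minus the share with Menin in both lines was -12.3 percentage points. It was -3.35 points when matched on the 6 steps, and 0.639 when at least 50% of the bases of a row had to be covered, so for the whole set the direction depended on the setting. For stand-alone rows matched on quartiles it was -21.3 points. Quartiles match coarsely, since over the whole set the lowest ran to a fold of 7.655 and held 799 of the 917 rows. By the 6 steps the mark was on 32.7%, 35.1%, 38.2%, 33.6%, 42.2% and 54.55% of stand-alone rows without Menin. With Menin in both lines the shares were 50%, 25%, 54.05%, 57.6%, 68.0% and 85.1%, where the lowest steps hold only 4 and 8 rows. Those without Menin were lower in every step but 4 to 5. No single difference was matched on these steps for stand-alone rows. In the whole set a match on deciles of fold gave -5.36 points.

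The mark was rare at 3′ ends. It was on 49.1% of the rows at a 5′ end and on 6.38% of those at a 3′ end alone. A promoter window was shared by 149 of the 408 rows with the mark and 159 of the 509 without it. Windows of rows with H3K4me3 had a median CpG ratio of 0.714, and those of rows without it 0.394, with 14.8% and 50.9% of windows under 0.4. When a row had the mark, its H3K4me3 fold lay at the 52.8th percentile of the list in the median, against 56.3 and 61.2 for the Menin-bound sets, and the H3K4me3 rows had a median width of 889.5 bp. Of the 509 rows without the mark, 123 had an H3K4me3 row within 1 kb.

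Over the whole set MLL1 dropped out more often where the mark was present. Rows with the mark in DMSO were not called for MLL1 after VTP50469 in NUP98-HOXA9 in 66.7% of cases (272 of 408, 62.0 to 71.1%) and rows without it in 54.8% (279 of 509, 50.5 to 59.1%). Flanking rows both carried the mark more often and dropped out more often, so the pooled shares also hold that mix. Among stand-alone rows the shares were 52.0% (44.6 to 59.3%) and 44.3% (38.8 to 49.9%), and among flanking rows 77.7% (71.9 to 82.6%) and 70.6% (64.0 to 76.4%). The share was higher with the mark in either kind, the intervals overlap within each, and the difference was not tested. MLL1 and H3K4me3 were sampled at different times, 72 h for MLL1 and 96 h for H3K4me3. The strongest H3K4me3 rows of the set lay over Eloa, a subunit of an elongation complex, and Hipk2, a kinase of the DNA damage response. Both had an H3K4me3 fold of 13.3 with DMSO, with 12.9 and 15.9 after VTP50469, on MLL1 rows of fold 4.42 at Eloa and 5.10 and 6.24 at Hipk2. The MLL1 row at Eloa and the weaker one at Hipk2 were not called after VTP50469. Pcnx (12.2), Emsy (12.2), Slc48a1, a haem transporter (12), Mgat5, a glycosyltransferase (11.8), and Cerk, the ceramide kinase (11.6), followed. The MLL1 rows at all of these genes but Pcnx are flanking. A DMSO Menin row lay 349 bp from the row at Eloa, 333 bp at Emsy, 338 bp at Slc48a1 and 670 bp at Mgat5. At Hipk2, Pcnx and Cerk the nearest lay 64252, 66558 and 2447 bp away. The DMSO H3K4me3 row was 1033 bp wide over the 406 bp site at Eloa and 2591 bp at Hipk2. Its fold thus belongs to more than the site. Strong MLL1 rows without the mark in either list lay at Nmi, Clec4a1, Umps, Sf3b1, Tnfsf10, which encodes the death ligand TRAIL, Tmem140 and Arhgef6.

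Interferon-induced genes lay in the set mostly through rows of their own. Of 47 genes on a list of such genes 33 had a narrow gene-end MLL1 row. Of these 33, 8 had a row without Menin (24.2%, interval 12.8 to 41.0%), against 954 of all 9397 genes with a narrow gene-end row (10.2%). The list was chosen with earlier results of these data known. For all 8 the rows without Menin were the only narrow gene-end rows. The 10 rows lay at Parp12, Herc6, a ubiquitin-type ligase of ISG15 (10.8, chr6:57580806-57582728), Ddx58, the RNA sensor RIG-I (9.64, chr4:40238675-40240082), Irgm1 (9.36 and 6.24), Parp14, an ADP-ribosyltransferase (8.22 and 4.25), Xaf1, a promoter of cell death (5.95), Tap1, the peptide transporter of antigen presentation (4.82), and Ifit1, an RNA-binding effector (4.41). Of these, 7 rows were not called after VTP50469 in NUP98-HOXA9 (interval 39.7 to 89.2%), a share that covers the 60.1% of the set, and those at Parp12 (13), Herc6 (5.73) and Ddx58 (4.54) were called. In NUP98-JARID1A the rows at Parp12, Herc6, Ddx58, Irgm1, Parp14, Xaf1 and Tap1 were called with DMSO and after VTP50469, and Ifit1 was called in neither. The row at Tap1 lies at a 3′ end, 573 bp from a Menin row. H3K4me3 was on 5 of the 10 rows with DMSO, near the 44.5% of the set. Nmi, Erap1 and Tnfsf10, also known as interferon-induced genes, are not on the list and are mentioned after their values were seen.

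In the Hoxb and Hoxc clusters, homeobox genes of body patterning and blood progenitors, rows without Menin lay at Hoxb9, Hoxc8 (10.0), Hoxb8 (6.52), Hoxb7 (5.39) and Hoxc6 (4.54). All 5 rows are flanking. Those at Hoxb7 and Hoxc6 were not called after VTP50469 in NUP98-HOXA9, and of the 5 only Hoxc8 carried H3K4me3 with DMSO (4.43). Hoxb9 and Hoxb8 were called in NUP98-HOXD13 with DMSO (7.54 and 6.85) and after VTP50469 (10.8 and 6.23).

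Of 30 genes on a list of Menin-MLL leukaemia targets 12 had a narrow gene-end MLL1 row. Of these 12, 5 had a row without Menin (41.7%, interval 19.3 to 68.1%), against 10.2% of all genes with a narrow gene-end row. This list too was chosen with earlier results known. None of their 6 rows was called after VTP50469 in NUP98-HOXA9 (interval of the share not called 61.0 to 100%), where 60.1% of the 917 were not. They were Myb (8.79, chr10:21159687-21160268), Zeb2, a zinc-finger repressor (6.24), Cdkn1b, the cell-cycle inhibitor p27 (6.24), Hmga2, an architectural chromatin protein (5.39), and Myc, with 2 rows of 5.39. Menin lay 369 bp from the row at Myb and 350 and 461 bp from those at Myc, so these rows flank a Menin-bound region. The row at Cdkn1b lies near a 3′ end alone and is also flanking, 939 bp from an MLL1 row of 3074 bp. Its nearest DMSO Menin row lay 1653 bp away. At Zeb2 and Hmga2 the nearest DMSO Menin row lay 6402 bp and 29176 bp away. All 6 rows were called in NUP98-JARID1A with DMSO and after VTP50469, but mostly by wide rows that span far more than the site. The DMSO row over the 582 bp site at Myb was 6052 bp wide (fold 54.7), that over Zeb2 10375 bp (39.3), that over Cdkn1b 14119 bp (40.8) and the single row over both Myc sites 5103 bp (26.2). These folds belong to the wide rows, not to the sites. At Hmga2 the row was 561 bp wide, with a fold of 6.54. In NUP98-HOXD13 the rows at Myb, Zeb2 and Hmga2 and 1 of those at Myc were called with DMSO and none after VTP50469. H3K4me3 was on 4 of the 6 with DMSO (interval 30.0 to 90.3%), which covers the 44.5% of the set.

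Mitochondrial genes were seldom in the set. In this paragraph the genes of a list are counted out of those with a narrow gene-end MLL1 row. Of 80 respiratory chain genes with a narrow gene-end row 2 had one without Menin (2.50%, interval 0.688 to 8.66%), and of 70 mitochondrial ribosomal protein genes also 2 (2.86%, 0.787 to 9.83%), both below the 10.2% of all genes. None of 26 housekeeping genes had one, with an interval of up to 12.9% that covers the share of all genes. The same holds for cytosolic ribosomal proteins (4 of 76), DNA repair (2 of 57), DNA replication (3 of 39), mitosis (2 of 38), cilium genes (2 of 45), proteasome subunits (3 of 33), aminoacyl-tRNA synthetases (4 of 34), zinc finger genes named Zfp (25 of 244) and solute carriers (21 of 153). Replication histone genes had 9 of 49, on 6 rows without H3K4me3, and since histone genes are near-identical copies their rows are uncertain. Neutrophil and monocyte effectors had 5 of 23 (21.7%), and their interval of 9.66 to 41.9% also covers the share of all genes. These were Adgre1, the macrophage marker F4/80 (8.22), Prtn3, a granule protease (5.67), Ltf, lactoferrin of secondary granules (5.39), Cebpe, the transcription factor of granulocyte maturation (5.10), and Itgam, the integrin CD11b (3.69). Of their 6 rows, 4 were not called after VTP50469 (interval 30.0 to 90.3%), and H3K4me3 was on 1 with DMSO (3.01 to 56.4%), at Adgre1 (5.06). Both intervals cover the shares of the set, 60.1% and 44.5%. The remaining lists had 1 gene each or none: Car2 of 6 erythroid and megakaryocyte genes, Gata2 of 2 mast cell and basophil genes, Kdm6a, an H3K27 demethylase, of 19 genes of MLL and Menin complexes, Bcl2a1d of 10 BCL2 family genes and 0 of 2 lymphoid genes, while 2 of 9 odorant and vomeronasal receptor genes were Vmn2r16 and Olfr1509.

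Menin after VTP50469 met 83 of the 917 rows in NUP98-HOXD13 (9.05%, interval 7.36 to 11.1%), where 63.2% of all NUP98-HOXA9 MLL1 rows did, and none in NUP98-HOXA9 (0 of 917, which allows up to 0.417%), whose VTP50469 Menin list has 403 rows. The rule left out rows with DMSO Menin in NUP98-HOXD13, while the 63.2% counts them, so the lower share follows in part from the rule. These 83 rows had no Menin with DMSO by the rule. MLL1 was still called after VTP50469 in NUP98-HOXA9 on all but 14 of them (16.9% not called, 10.3 to 26.3%), against 64.4% not called among the other 834 (61.1 to 67.6%). In NUP98-HOXD13 itself 27 of the 83 carried MLL1 after VTP50469 (32.5%), against 58 of 834 (6.95%), and in NUP98-JARID1A 69 of 83 did. The highest Menin folds were at Coro1c, an actin-binding coronin (17.7), Ankrd22 (12.7), Tcn2, the cobalamin carrier transcobalamin (9.47), Slc15a4, a lysosomal transporter (9.06), and Igsf6 (9.06). MLL1 at Coro1c, at chr5:113842481-113842973, had a fold of 5.39 in NUP98-HOXA9 DMSO and 17.8 in VTP50469, and at Igsf6 of 8.11 and 18.5. Of the other 3, Ankrd22 (10.8 with DMSO) and Tcn2 (5.65) were still called in NUP98-HOXA9 and Slc15a4 (5.67) was not. The 493 bp row at Coro1c is flanking, 295 bp from another MLL1 row and 303 bp from a DMSO Menin row. The VTP50469 rows over it were 1019 bp wide for MLL1 and 1067 bp for Menin. Their folds belong to those wider rows and not to the site alone.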

How the data were processed

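Chromatin immunoprecipitation with antibodies to MLL1, Menin and H3K4me3 was sequenced as 37 bp paired-end reads, per the labels. The 14 peak lists are 1 library each, in mm10, and the 10 input libraries were not used here. Per the submitters' processing notes, MACS2, SAMtools, bedtools, Picard 2.9.4, STAR 2.7.5a and bcl2fastq 2.20.0.422 were used. Which tool did which step, and with what settings, was not given in the sources used here. Each deposited list gives, from the authors' peak caller, a fold enrichment per row, −log10 p and −log10 q values, and a score. The deposited score repeats the q value and was not used. The peak names inside the NUP98-HOXD13 MLL1 lists match the titles of their samples in every field but the closing S number, and the lists were used as deposited for those samples. The weakest row of a list had a −log10 q between 2.00 and 2.07.

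Rows were intersected in Python 3.11.15 with pandas 2.3.3 and numpy 2.4.6. A row counted as called in another list where at least 1 base was shared. Gene ends and promoter windows came from RefSeq on GRCm38.p6, with 21631 protein-coding genes and 21037 promoter windows, none on chromosome 18, where 14 of the rows lie. Whether a 5′ or 3′ end was near could be told only for the 17274 genes with a strand. Shares have 95% Wilson intervals. No test was made, since each condition is 1 library. The intersections were tested on simulated lists.

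The rows, the 23 gene lists and the comparisons were chosen with earlier results of these data known. Motifs for PU.1 and the interferon element were added after the genes were seen. Named rows are the strongest by MLL1 fold, the strongest not called after VTP50469, without H3K4me3, called in all MLL1 lists or called with DMSO in NUP98-HOXA9 alone, the highest by H3K4me3 or by Menin after VTP50469, those of the gene lists, and those nearest each threshold. Alternatives varied the overlap, the q value, the length of the lists, the distance, the width, the Menin rule and the steps of fold. A result that needs a withheld item is not reported here.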

Additional observations from a re-analysis of the deposited data

Results flagged for a closer look

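The number of rows without Menin that carried MLL1 moved in opposite directions between lines, and this difference was not tested, since each line has 1 library per condition. The count after VTP50469 minus the count with DMSO was -398 in NUP98-HOXD13 (483 and 85 rows), 120 in NUP98-JARID1A (431 and 551 rows) and -195 in NUP98-NSD1 (219 and 24 rows). The lists behind them changed length in the same directions, from 20154 to 14744 rows, from 15765 to 24950 and from 7113 to 1036. With both lists of a line at the length of the shorter one, the differences were -180, -149 and -27, all of 1 sign. The part that list length has in the larger difference was not tested further. The labels also give NUP98-NSD1 another dose.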

How the results depend on the processing

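Of 131 alternatives over 12 results, 64 stayed within the counting interval or within 1.5 times the count, 66 moved further and 1 changed sign. The cause was not tested for any of them, beyond what the setting itself changes. Requiring 50% of a row's bases gave H3K4me3 on 32.1% with DMSO and 34.0% with VTP50469, MLL1 not called in NUP98-HOXA9 on 69.8%, DMSO MLL1 on 42.3% (NUP98-HOXD13), 39.7% (NUP98-JARID1A) and 17.6% (NUP98-NSD1), and MLL1 not called on 23.6% and 95.03% of bound rows in the last 2 lines. The fold-matched differences from rows with Menin in both lines then were 0.639 points for H3K4me3, a change of sign, and 62.8 for MLL1 not called, against -12.3 and 59.5. A 500 bp distance left 572 rows, with 50.7% not called in NUP98-HOXA9, 57.9% and 26.9% bound with DMSO in NUP98-HOXD13 and NUP98-NSD1, 11.99% of bound rows not called in NUP98-JARID1A and differences of -20.3 and 50.7 points. A 2 kb distance took in 1419, with H3K4me3 on 36.5% and 39.5%, 63.6% not called in NUP98-HOXA9, and 46.9% and 21.1% bound in NUP98-HOXD13 and NUP98-NSD1. Leaving out rows within 1 kb of Menin left 578, with H3K4me3 on 36.9% and 38.9%, 50.3% not called in NUP98-HOXA9, 81.8% in NUP98-HOXD13 and 13.2% in NUP98-JARID1A, 43.3% bound in NUP98-JARID1A and differences of -20.6 and 49.8 points. The stand-alone rows, an alternative chosen after the data were seen, gave 480 rows, H3K4me3 on 36.5% and 39.2%, 47.1%, 81.0% and 12.3% not called in the same lines, 40.6% and 20.6% bound in NUP98-JARID1A and NUP98-NSD1 and differences of -21.3 and 46.4 points. With the Menin rule applied to NUP98-HOXA9 alone the set was 3940 rows and most values came near those of the rows with Menin in 1 line: H3K4me3 on 63.8% and 66.0%, 93.3%, 29.3%, 18.3% and 3.79% not called in NUP98-NSD1, NUP98-HOXD13, NUP98-HOXA9 and NUP98-JARID1A, DMSO MLL1 on 84.9%, 69.8% and 33.5% in NUP98-HOXD13, NUP98-JARID1A and NUP98-NSD1 and differences of -0.617 and 17.96 points. Rows at 5′ ends had H3K4me3 on 49.1% and 52.6% and MLL1 on 51.5% in NUP98-JARID1A. Rows that no Menin list touched, treated lists included, gave 64.4% not called in NUP98-HOXA9 and a difference of 63.8 points. Lists of equal length gave 81.1%, 50.1% and 62.7% not called in NUP98-HOXD13, NUP98-JARID1A and NUP98-NSD1. For DMSO H3K4me3, MLL1 not called in NUP98-HOXA9 and the fold-matched differences, the list read was the shorter of its pair. Equal length could not change these values, so they count among the 64 by construction. With the NUP98-HOXA9 DMSO list also cut, 463 of 812 rows without Menin were not called (57.0%), against 19.4% of all rows. A width under 1000 bp gave 20.7% bound and 94.9% not called in NUP98-NSD1 and an H3K4me3 difference of -6.41 points. Deciles of fold gave -5.36 points and the 6 fixed steps, also chosen after the data were seen, -3.35.

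No paired analysis was possible because each condition has 1 library, and for the same reason no replicate was left out. Reads were not used, so a row near the calling limit and a row truly gained or lost cannot be told apart, and a missing Menin row says only that none was called. The fold of a list cannot be set against that of another.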

Other observations

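Menin met some of these rows after VTP50469 in NUP98-HOXD13. Of the 83 rows with Menin after VTP50469, 62 stand alone (12.9% of the 480 stand-alone rows) and 21 flank another MLL1 row (4.81% of the 437). H3K4me3 was on 30 of the 83 with DMSO (36.1%, interval 26.6 to 46.9%). MLL1 was on 50 of them in NUP98-HOXD13 with DMSO (60.2%). The NUP98-HOXD13 Menin list of DMSO cells lay within 1 kb of 21 of the 83.

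Rows kept in NUP98-HOXA9 and rows not called there after VTP50469 shared a promoter window in 165 of 366 and 143 of 551 cases. The CpG ratios of these windows were 0.598 and 0.549 in the median, with 32.7% (26.0 to 40.2%) and 34.3% (27.0 to 42.4%) of windows under 0.4. The CCAAT box was in 36.4% (29.4 to 43.9%) of the windows of rows kept and 23.1% (16.9 to 30.6%) of the others, and the PU.1 motif in 4.85% (2.48 to 9.28%) and 11.2% (7.01 to 17.4%). The 2 pairs of intervals overlap, and neither difference was tested. Rows kept had a median width of 399 bp with DMSO and 348 bp after VTP50469, and 215 of the 366 were narrower after it. The medians of the kept Menin-bound rows also fell, from 597 to 521 bp with Menin in 1 line and from 822 to 748 bp with Menin in both. Of the 551 rows not called in NUP98-HOXA9, 264 were bound in NUP98-HOXD13 with DMSO and 247 of those were not called there after VTP50469 (93.6%, interval 89.9 to 95.9%), against 169 of 219 among the rows kept (77.2%, 71.2 to 82.2%).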
